A study of Mus musculus with 35 samples.

Results

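The regions described here are distal stretches of chromatin that carried H3K27ac, the acetylation mark of active enhancers, in Ikaros-mutant pre-B cells and not in wild-type pre-B cells, and that were already marked by H3K4me1 in the wild type. They were chosen from the deposited peak lists by 4 conditions. A region was an H3K27ac peak of the mutant on chromosomes 1 to 19 or X with its centre more than 2500 bp from the nearest transcription start site (TSS). It overlapped no wild-type (WT) H3K27ac peak and no WT Ikaros peak, and it overlapped a WT H3K4me1 peak by at least 1 bp. Of 38528 mutant H3K27ac peaks 27521 were distal. WT H3K27ac overlapped 47.4% of the distal peaks, WT Ikaros 36% and WT H3K4me1 52.9%. Outside WT H3K27ac lay 14482, and 12848 of these also lay outside WT Ikaros. Of those, 2254 met the rule, 8.19% of the distal peaks and 17.5% of the 12848. They are called primed gained regions below. Their share of the distal peaks ran between 6.55% on chromosome 16 and 9.52% on chromosome 3. The other distal peaks serve as comparison: 10594 gained regions without WT H3K4me1, 1634 gained regions that held a WT Ikaros peak, and 13039 kept regions that overlapped WT H3K27ac.

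The study mapped chromatin and transcription factors in mouse pre-B cell progenitors that adhere to a stromal layer, at passages 3 to 8. The mutant cells, labelled IKDN, came from IKDN CD2 Cre mice, in which a dominant-negative form of Ikaros depends on a Cre recombinase driven by the lymphoid CD2 promoter. The WT cells came from WT mice. Of 35 libraries 33 had a peak list, 17 IKDN and 16 WT, and the 2 input libraries had none. Each genotype and target had 1 library, so no difference between genotypes had a replicate check and no test was run. The 95% intervals are exact binomial (Clopper-Pearson) intervals over regions, which share their libraries, and they cover counting error only. The lists give peaks and not reads, so the depth of each library is unknown. The lists hold between 2778 and 86562 peaks. The WT E2A list is complete on 11 of the 20 chromosomes, the WT ETS1 list on 19 and the IKDN PAX5 list on 18, and each was used on those alone. The antibody labels give 1 catalogue number to the IKDN E2A library and to both IRF4 and both PAX5 libraries, another to WT E2A, IKDN ETS1 and IKDN LHX2, and that of the H3K4me1 antibody to IKDN H3K4me3. Whether those labels are right was not tested.

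H3K4me1 is laid down by the MLL3 and MLL4 methyltransferases at enhancers, often before the enhancer is active. An enhancer with H3K4me1 and no H3K27ac is called primed, and the acetyltransferases CBP and p300 add H3K27ac when it becomes active. Mediator, of which MED1 is a subunit, then links the bound transcription factors to RNA polymerase II. Ikaros is a zinc finger factor that lymphoid progenitors need to differentiate, and EBF1, PAX5, E2A, IRF4 and ETS1 are factors of B cell development. LHX2 is a LIM homeodomain factor, LMO2 is a bridging protein of haematopoietic progenitors that does not bind DNA itself, and TEAD1 is the DNA-binding partner of the Hippo effector YAP.

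Few primed gained regions lay at an annotated start site, since the rule leaves those out by distance. The RefSeq windows of 300 bp around a gene start (250 bp before and 50 bp after it, GRCm38.p6) hold the sequence of a few of them. A window overlapped 45 of the 2254 primed gained regions (2%), against 1.59% of the gained regions without WT H3K4me1 and 3.79% of all distal peaks, and 30 windows lay wholly inside one. The 4 windows shown are at starts of long non-coding RNAs, and the centre of an IKDN factor peak lay in each. An IKDN factor centre lay in 11 of the 30 windows and a WT one in 6, so the 4 shown do not stand for all. The capitals mark matches to any of 11 short motifs on either strand, spelled out further on, and overlapping matches run together.
Gm35317, chr2:77323861-77324160, minus strand: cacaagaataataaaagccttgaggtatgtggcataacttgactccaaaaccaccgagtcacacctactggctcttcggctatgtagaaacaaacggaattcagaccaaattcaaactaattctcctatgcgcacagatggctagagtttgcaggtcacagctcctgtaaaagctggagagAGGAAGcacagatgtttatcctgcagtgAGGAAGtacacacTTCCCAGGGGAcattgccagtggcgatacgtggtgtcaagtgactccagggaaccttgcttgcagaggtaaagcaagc
Gm32141, chr10:117447386-117447685, minus strand: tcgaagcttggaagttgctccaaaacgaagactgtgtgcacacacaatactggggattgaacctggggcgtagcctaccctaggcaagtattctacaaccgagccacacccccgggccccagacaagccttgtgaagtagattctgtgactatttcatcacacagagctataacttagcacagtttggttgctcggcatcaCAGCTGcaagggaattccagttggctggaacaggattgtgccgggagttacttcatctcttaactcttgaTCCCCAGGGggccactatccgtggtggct
Gm11454, chr2:163122365-163122664, plus strand: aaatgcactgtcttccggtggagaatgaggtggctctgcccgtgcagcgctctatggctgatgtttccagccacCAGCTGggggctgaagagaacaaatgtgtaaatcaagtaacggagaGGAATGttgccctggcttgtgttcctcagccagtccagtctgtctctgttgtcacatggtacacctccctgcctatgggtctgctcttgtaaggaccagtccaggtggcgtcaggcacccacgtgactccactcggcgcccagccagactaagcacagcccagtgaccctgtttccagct
Gm41519, chr17:5770681-5770980, minus strand: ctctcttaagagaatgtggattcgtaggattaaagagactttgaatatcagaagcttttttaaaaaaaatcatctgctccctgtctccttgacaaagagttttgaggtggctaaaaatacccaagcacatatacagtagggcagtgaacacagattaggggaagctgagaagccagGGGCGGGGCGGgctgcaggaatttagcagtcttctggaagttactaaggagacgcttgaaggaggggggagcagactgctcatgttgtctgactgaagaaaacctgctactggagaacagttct
The region at Gm35317 had an H3K27ac score of 112.2, and its window held the peak centres of 7 factors in IKDN cells and of EBF1 in WT cells. On its chromosome the WT E2A and ETS1 lists are incomplete, so those factors could not be read there in WT cells. The capitals of this window are 2 ETS matches, and a stretch in which 2 EBF1 matches and 1 Ikaros match overlap. The window at Gm32141, in a region of score 49.7, held 7 IKDN factor centres and no WT one, with an E-box and an EBF1 match. LHX2 and LMO2, among the 7 at each of these windows, were mapped in IKDN cells only. The window at Gm11454 held 6 IKDN centres, TEAD1 among them, with an E-box and a TEAD match. The window at Gm41519 held a TEAD1 centre in both genotypes and no match to the TEAD letters, and its capitals are 2 overlapping SP/KLF matches.

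The share of the 30 windows with each motif is a description of few sequences, set here beside all 32619 RefSeq windows. The ETS letters AGGAAG were in 14 windows (46.7%, all windows 35.2%), the Ikaros letters TGGGAA in 11 (36.7%, all 25.4%) and the EBF1 letters CCCNNGGGA in 5 (16.7%, all 6.60%). The E-box CAGCTG of E proteins such as E2A was in 8 windows (26.7%, all 16.4%), and TEAD letters GGAATG in 6 of the 30 (all windows 14.6%). The RUNX letters TGTGGTT were in 3 of the 30 (all windows 5.29%), the AP-1 letters TGANTCA in 2 (6.67%, all 7.85%), and GATA letters AGATAA in 1 (3.33%, all 11.2%). The SP/KLF letters GGGCGG were in 8 windows (26.7%, all 35.9%). The letters TAATTA of LIM homeodomain factors, and GAAA with a second GAAA 2 bases on for IRF factors, were in 0 of the 30 windows, and in 5.25% and 3.46% of all. The median GC content was 52% in the 30 windows and 53% in all windows. Of the matches in the 30 windows, an EBF1 and an Ikaros match overlapped 2 times, a TEAD and an Ikaros match 2 times, and an ETS and an Ikaros match 1 time.

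The primed gained regions were mostly small acetylation peaks, and a minority were broad and strong. Their IKDN H3K27ac score, the authors' own value per peak, had a median of 11.3 and ran between 5.08 and 1094.9. The median was 7.82 in the gained regions without WT H3K4me1, 21.1 in those with WT Ikaros and 36.4 in the kept regions. The median width was 758 bp, the widest measured 23081 bp, and 42 were wider than 5 kb. At the smallest width the list holds, 501 bp, lay 815 of them (36.2%), against 53.4% of the gained regions without WT H3K4me1, 19.6% of those with WT Ikaros and 13.9% of the kept regions. In the highest-scored 25% of all distal peaks, above a score of 49.3, lay 285 (12.6%), against 6.94% of the regions without WT H3K4me1. Since H3K27ac and WT H3K4me1 chose the regions, these values describe the choice.

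The WT H3K4me1 covered a median of 67.7% of a primed gained region's width and all of it in 661 (29.3%). The regions nearest to that border overlapped WT H3K4me1 by 2 bp (nearest gene Mkrn1), 3 bp (Pkn3) and 4 bp (Stk4). Just outside lay regions 1 bp (Btg3), 2 bp (Mir7219) and 5 bp (Iqgap1) from a WT H3K4me1 peak. The overlap was under 100 bp in 119 regions, and 954 of the gained regions without WT H3K4me1 had such a peak within 1000 bp. By distance to a TSS the nearest inside were at 2506 bp (Arhgap8), 2526 bp (Btbd17) and 2551 bp (Artn), and the nearest outside at 2494 bp (Ccar2), 2481 bp (Nin) and 2462 bp (Fdps). A WT H3K27ac peak lay within 100 bp of 28 primed gained regions and a WT Ikaros peak within 100 bp of 87. Closer to a TSS, 273 regions met the other conditions.

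**Figure D1:**
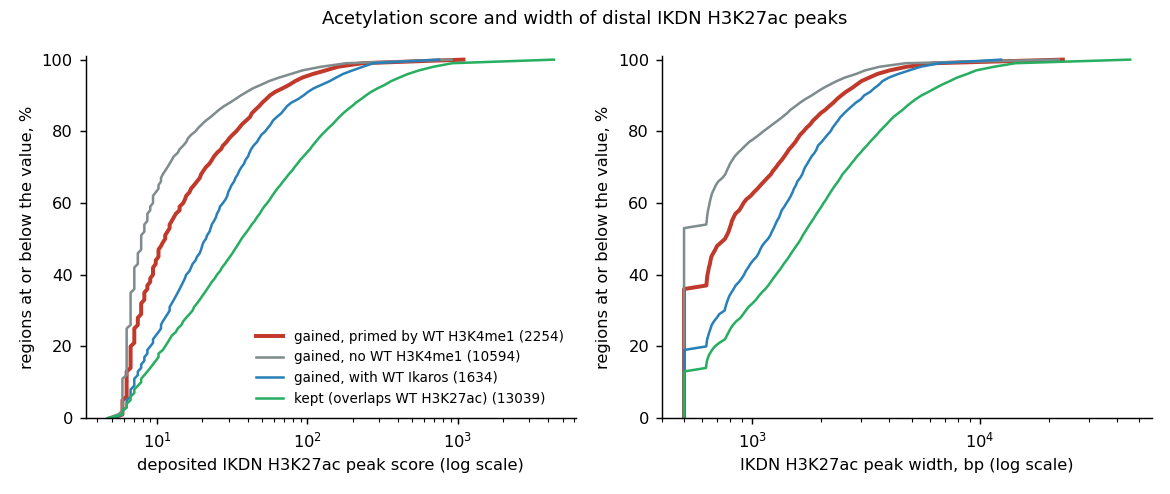
The curves give the percentiles of the IKDN H3K27ac score (left) and of the peak width in bp (right), both on log axes, for the primed gained regions and the 3 other sets of distal peaks. The median of the primed gained regions, 11.3 and 758 bp, lies between those of the gained regions without WT H3K4me1 and of the other 2 sets.

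Most of these regions kept H3K4me1 in the mutant, though a smaller share than of other distal peaks with WT H3K4me1, and many also carried H3K4me2, which at enhancers goes with more open chromatin than H3K4me1 alone. IKDN H3K4me1 overlapped 1873 of 2254 (83.1%, 81.5 to 84.6), against 39.96% of the gained regions without WT H3K4me1 and 68.3% of all distal peaks. Since the rule gives every primed gained region WT H3K4me1, this is the share that kept it. Among distal peaks with WT H3K4me1 the share that kept it was 93.1% over all, 94.9% in the kept regions and 95.1% in the gained regions with WT Ikaros, so it was lowest in the primed gained regions. The 381 regions without an IKDN H3K4me1 peak (WT alone, all distal peaks 3.66%) had a median H3K27ac score of 7.43, and 50.1% of them lay in IKDN H3K36me3. IKDN H3K4me2 overlapped 1379 (61.2%, 59.1 to 63.2) and WT H3K4me2 982 (43.6%, 41.5 to 45.6), where all distal peaks gave 59.4% and 48.4%. In the gained regions without WT H3K4me1 these shares were 28.3% and 4.07%. H3K4me2 was present in IKDN alone at 585 regions (26.0%, all distal peaks 15.3%), in both genotypes at 794 (all 44.2%) and in WT alone at 188 (all 4.21%). The share in IKDN alone was similar in the other gained sets, at 24.7% without WT H3K4me1 and 25.9% with WT Ikaros.

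The promoter mark H3K4me3 was rare. It overlapped 146 regions in IKDN cells (6.48%, all distal peaks 16.9%) and 75 in WT cells (3.33%, all 17.5%). Nearly all regions with IKDN H3K4me3 also had WT H3K4me2: the mark lay at 134 of the 982 regions with WT H3K4me2 (13.6%) and 12 of the 1272 without it (0.943%). H3K36me3, laid down behind transcribing polymerase, overlapped 628 regions in IKDN (27.9%, all 34.8%) and 429 in WT cells (19.03%, all 26.2%). In the gained regions without WT H3K4me1 it was more common, at 48.9% in IKDN and 36.7% in WT cells. RNA polymerase II with the serine 5 phosphorylation found near transcription starts (RNAPII) overlapped 714 regions in IKDN cells (31.7%, all 42.7%) and 464 in WT cells (20.6%, all 37.3%).

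Mediator was found at these regions almost exclusively in the mutant list. IKDN MED1 overlapped 431 regions (19.1%, 17.5 to 20.8, all distal peaks 32.1%) and WT MED1 4 regions (0.177%, all 9.61%), with none in common. Over all distal peaks MED1 was in IKDN alone at 24.0%, in WT alone at 1.49% and in both at 8.11%. In the gained regions without WT H3K4me1 the shares were 10.3% in IKDN and 0.585% in WT cells, and in the kept regions 50.8% and 19.6%. The IKDN MED1 list holds 24201 peaks and the WT one 12062, and the rule asks for H3K27ac in IKDN and none in WT cells. The parts of list length and of the rule in the difference between genotypes were not tested.

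Each factor mapped in both genotypes overlapped a larger share of the primed gained regions in IKDN than in WT cells. TEAD1 overlapped 777 in IKDN cells (34.5%, 32.5 to 36.5, all distal peaks 39.8%) and 151 in WT cells (6.70%, all 16.4%). PAX5 overlapped 865 of 2088 in IKDN cells (41.4%, all 50.3%) and 398 in WT cells (17.7%, all 35.9%), and its lists are the longest. EBF1, a pioneer factor of the B lineage, overlapped 469 (20.8%, all 27%) and 232 (10.3%, all 18.8%). For IRF4 the counts were 544 in IKDN (24.1%, all 34.4%) and 84 in WT cells (3.73%, all 16.6%). ETS1 overlapped 607 regions in IKDN (26.9%, all 38.6%) and 59 of 2084 in WT cells (2.83%, all 19.8%). E2A overlapped 311 in IKDN (13.8%, all 24.2%) and 50 of 1130 in WT cells (4.42%, all 21.9%). Every one of these 12 shares lies below that of all distal peaks, and each lies above that of the gained regions without WT H3K4me1. The rule asks for H3K27ac in IKDN and for neither H3K27ac nor Ikaros in WT cells, so the choice is not neutral between genotypes. A WT peak of any of these factors lay at 76.1% of the kept regions and 78.5% of the gained regions with WT Ikaros, on the chromosomes complete in every WT list. The part of the rule in these differences was not tested. The IKDN lists are longer for TEAD1 (47671 peaks, WT 33450), IRF4 (29546, WT 17942), EBF1 (33367, WT 25585) and ETS1 (35438, WT 22423 in a list complete on 19 chromosomes). For PAX5 the IKDN list, complete on 18 chromosomes, holds 86562 peaks and the WT list 81917. For E2A the WT list is the longer, with 16044 peaks though complete on 11 chromosomes, against 15372 in IKDN. The part of list length in these shares was not tested. The Ikaros relative Aiolos overlapped 29 regions in IKDN (1.29%, all 3.19%) and 2 in WT cells (0.0887%, all 3.78%).

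LHX2 and LMO2 were mapped in IKDN cells only. LHX2 overlapped 543 regions (24.1%, 22.3 to 25.9, all distal peaks 32.4%) and LMO2 376 (16.7%, 15.2 to 18.3, all 26.8%). In the gained regions without WT H3K4me1 the shares were 12.9% for LHX2 and 9.36% for LMO2, and 20.5% for IKDN TEAD1. At least 1 of LHX2, LMO2 and TEAD1 overlapped 1009 primed gained regions (44.8%, all 50.4%), against 26.1% of the regions without WT H3K4me1.

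**Figure D2:**
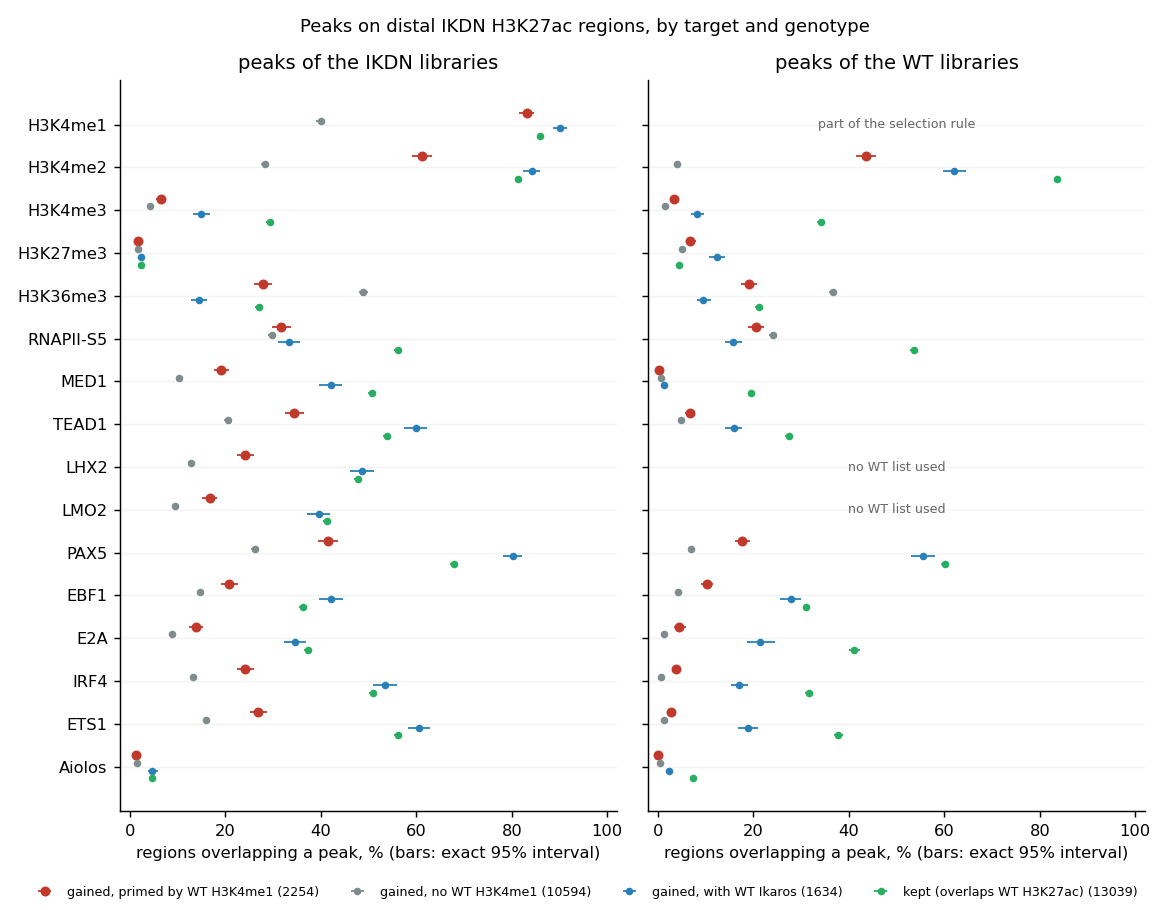
The panels give, for each list, the share in percent of the primed gained regions and of the 3 other sets of distal peaks that overlap a peak, IKDN beside WT, with exact 95% intervals. Among the primed gained regions the IKDN shares of MED1 (19.1%) and TEAD1 (34.5%) stand above the WT shares (0.177% and 6.70%).

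The factors differed in how far their IKDN peaks lay on sites already occupied in WT cells. EBF1 peaks of WT cells persisted at 221 of 232 regions (95.3%, 91.7 to 97.6), and 248 regions had EBF1 in IKDN alone. Over all distal peaks EBF1 was in both at 17.1%, in IKDN alone at 9.91% and in WT alone at 1.72%. PAX5 had 321 regions in both genotypes, 544 in IKDN alone and 46 in WT alone, so 87.5% of its WT regions persisted (all distal peaks 33.0%, 17.3% and 2.89%, in both, IKDN alone and WT alone). TEAD1 had 123 in both, 654 in IKDN alone and 28 in WT alone (all 14.8%, 25% and 1.62%). For each of the 6 factors, the regions with the factor in IKDN alone outnumbered those with it in both genotypes. The same held for all 6 in the gained regions without WT H3K4me1, with EBF1 in IKDN alone at 10.9% and in both at 3.72%. In the gained regions with WT Ikaros, EBF1 (15.4% and 26.7%) and PAX5 (28.0% and 52.2%) went the other way. The part of the rule in these counts was not tested. IRF4 had 67 in both, 477 in IKDN alone and 17 in WT alone (all 14.5%, 19.9% and 2.13%). ETS1 had 43, 526 and 16 in the same order (all 17.6%, 21.0% and 2.27%). E2A had 27, 132 and 23 (all 15.5%, 8.91% and 6.42%), and 54.0% of its WT regions on the 11 chromosomes persisted.

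Some of the primed gained regions therefore had a factor peak in WT cells beside H3K4me1. On the chromosomes complete in every WT list, any of EBF1, PAX5, E2A, IRF4, ETS1 and TEAD1 overlapped 386 of 1130 (34.2%, 31.4 to 37.0), against 16.5% of the regions without WT H3K4me1 and 50.1% of all distal peaks. In IKDN cells any of these or LHX2 or LMO2 overlapped 1339 of 2088 (64.1%, all 65.1%). The 727 regions (32.3%, all 47.0%) with WT EBF1, PAX5, IRF4 or TEAD1 had a median H3K27ac score of 16.0 and IKDN MED1 at 30.9%. The 1527 without any of the 4 had a median score of 9.78 and IKDN MED1 at 13.5%. The 982 regions with WT H3K4me2 had a median score of 12.9 and IKDN MED1 at 25.1%, against 10.2 and 14.5% in the 1272 without it.

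The share of regions with Mediator was larger the more IKDN factors a region had. Counting EBF1, E2A, IRF4, ETS1, TEAD1, LHX2 and LMO2, 952 regions (42.2%) had none, with MED1 at 4.31% and a median H3K27ac score of 7.82. With 1 factor MED1 lay at 12.9% of 427 regions, with 2 at 17.8% of 275, with 3 at 26.0% of 215 and with 4 at 46.0% of 139. With 5 it lay at 55.2% of 96, with 6 at 71.6% of 81 and with all 7 at 79.7% of 69 (68.3 to 88.4). The 69 regions with all 7 had a median score of 109.9 and a median width of 3145 bp, so factor number, score and width move together. In the gained regions without WT H3K4me1 MED1 lay at 1.84% with no factor and 84.0% with 7, and in the kept regions at 9.65% and 93.8%.

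LHX2, LMO2 and TEAD1 together marked 192 primed gained regions (8.52%, 7.40 to 9.75), against 4.93% of the gained regions without WT H3K4me1, 27.4% of the kept regions and 16.9% of all distal peaks. Those 192 had a median score of 70.6, a median width of 2461 bp, MED1 at 68.2% and IKDN H3K4me2 at 97.9%. None of the 3 was present at 1245 (55.2%), with a median score of 8.21, a median width of 501 bp and MED1 at 6.83%. Over all distal peaks none of the 3 was present at 49.6%. TEAD1 alone was at 321 (14.2%, all 11.2%), LHX2 alone at 131 (5.81%, all 4.73%) and LMO2 alone at 62 (2.75%, all 2.86%). LHX2 with TEAD1 was at 181 (8.03%, all 7.70%), LMO2 with TEAD1 at 83 (3.68%, all 3.99%) and LHX2 with LMO2 at 39 (1.73%, all 3.06%).

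Because the primed gained regions are stronger acetylation peaks than the gained regions without WT H3K4me1, the shares were also compared within 4 equal score groups of all distal peaks (borders at 7.43, 15.3 and 49.3). MED1 lay at 5.93% of the primed gained and 1.87% of the unprimed gained regions in the lowest score group, at 9.40% and 5.64% in the next, at 26.1% and 21.1% above that, and at 171 of 285 regions (54.1 to 65.7%) and 62.7% in the highest. The primed share was thus the larger of the pair in every score group but the highest. In the group below the highest the intervals of both sets overlapped, at 22.6 to 29.8% and 19.1 to 23.1%. TEAD1 lay at 12.2% of the primed and 5.75% of the unprimed regions in the lowest score group and at 79.6% and 80.8% in the highest. For IRF4 the highest score group gave 68.8% and 71.7%, for ETS1 73.7% and 72.9%, for LHX2 70.2% and 65.3%, and for EBF1 50.5% and 60.1%. Among peaks of the smallest width, 501 bp, MED1 lay at 6.13% of the primed and 2.25% of the unprimed regions and TEAD1 at 14.0% and 6.79%.

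WT H3K4me2 differed between the sets in every score group. It lay at 34.9% of the primed and 1.54% of the unprimed regions in the lowest score group, and at 59.3% and 8.84% in the highest. IKDN H3K4me1 lay at 70.0% and 19.1% in the lowest and 99.3% and 95.1% in the highest score group, where the primed regions had the mark in WT cells by the rule. IKDN H3K36me3 ran the other way in 3 of the 4 score groups, at 34.9% of the primed and 61.2% of the unprimed regions in the lowest, 27.1% and 49.2% in the next, and 22.5% and 26.6% above that. In the highest it lay at 24.9% and 16.6%.

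**Figure D3:**
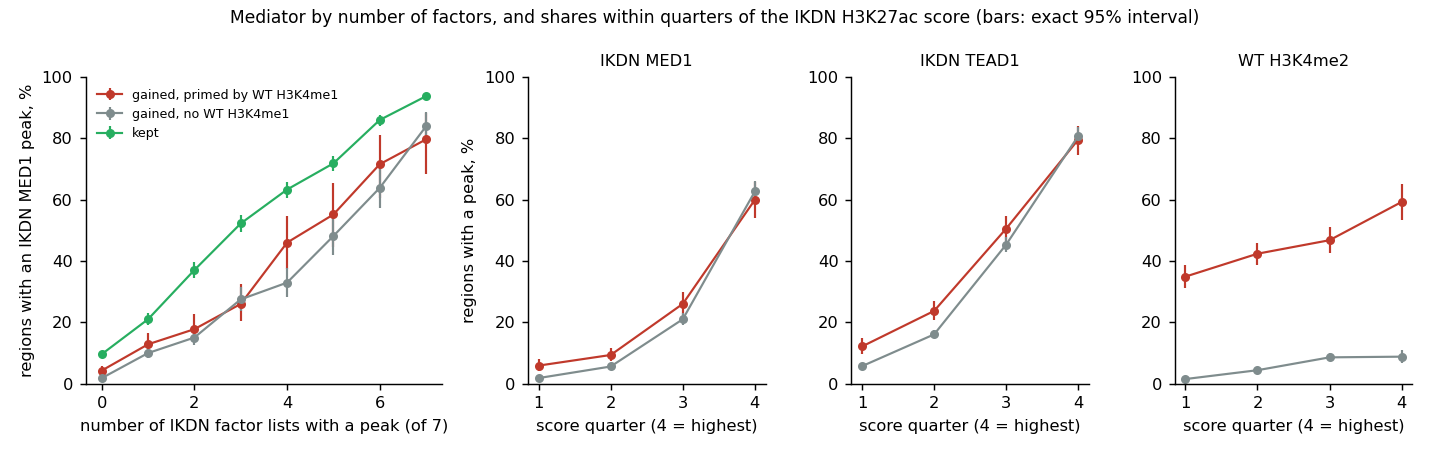
The left plot gives the share in percent of regions with IKDN MED1 by the number of 7 IKDN factors present, for the primed gained regions, the gained regions without WT H3K4me1 and the kept regions, and the other plots give the shares with IKDN MED1, IKDN TEAD1 and WT H3K4me2 by score group (1 lowest, 4 highest) for both gained sets, all with exact 95% intervals. The MED1 share of the primed gained regions is above that of the unprimed ones in score groups 1 to 3 (5.93% and 1.87% in the lowest) and not in the highest. Their intervals overlap in score groups 3 and 4.

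Some of the primed gained regions carried the Polycomb mark H3K27me3 in WT cells beside WT H3K4me1. How often both marks covered the same bases of a region was not computed. Of 2254 regions, 37 had H3K27me3 in IKDN (1.64%, all distal peaks 2.01%) and 153 in WT cells (6.79%, 5.78 to 7.91, all 5.32%). The mark was present in WT alone at 124 (all 4.06%), in both at 29 (all 1.26%) and in IKDN alone at 8 (all 0.749%). It was absent from the IKDN list at 81.0% of the 153, at 81.2% of the gained regions without WT H3K4me1 that had it in WT cells, and at 67.5% of such kept regions. The 153 had a median H3K27ac score of 24.6 and a median width of 1279 bp. IKDN MED1 lay at 48.4% of them (40.2 to 56.6), H3K4me3 at 35.3%, TEAD1 at 52.3% and LHX2 at 41.8%. In the 2101 regions without WT H3K27me3 these shares were 17.0% for MED1, 4.38% for H3K4me3, 33.2% for TEAD1 and 22.8% for LHX2.

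The largest difference in H3K27me3 cover was near Cdh22, a cadherin gene, at chr2:165238573-165243633, where the mark covered 0 bp in IKDN and 5058 bp in WT cells under an H3K27ac peak of score 256.1. Near Tmcc2 it covered 0 bp in IKDN and 3682 bp in WT cells (score 188.1), near Mrpl23 0 and 3507 bp (423.5), and in Rap1gap2, a regulator of the small GTPase Rap1, 0 and 3251 bp (134.5). Near Pax7, a muscle stem cell factor gene, it covered 0 bp in IKDN and all 2466 bp of the region in WT cells (87.2). These 5 were taken as the regions with most WT H3K27me3 and no IKDN H3K27me3. The one in Rap1gap2 holds a RefSeq start window of that gene, and H3K4me3 covered 2073 bp of the region in IKDN and 1423 bp in WT cells.

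Seen from the WT side, most primed sites were not acetylated in the mutant. Of 30552 distal WT H3K4me1 peaks, 10523 held neither H3K27ac nor Ikaros in WT cells. Of these 1571 (14.9%, 14.3 to 15.6) overlapped a primed gained region, and 359 (3.41%) another IKDN H3K27ac peak. With no IKDN H3K27ac, 2628 (24.97%) kept H3K4me1 and 5965 (56.7%) had neither mark. The 1571 had a median WT H3K4me1 width of 813 bp and score of 12.8, against 637 bp and 9.01 in the 8593 sites with no IKDN H3K27ac.

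The WT marks and factors at a primed site differed in how often it was acetylated in the mutant. Sites with a WT TEAD1 peak became primed gained regions at 106 of 434 (24.4%, 20.5 to 28.7), and sites without at 14.5%. With WT H3K4me2 the rate was 20.2% and without it 12.52%, with WT H3K36me3 20.2% and 14.3%, with WT EBF1 19.1% and 14.5%, and with WT RNAPII 18.4% and 14.4%. For WT PAX5 it was 14.6% with and 15.01% without, for IRF4 13.5% and 14.997%, and for H3K27me3 15.1% and 14.9%. Width moved with the rate too. Sites of 501 bp gave 10.5%, sites of 626 to 648 bp 13.2%, of 649 to 1033 bp 14.8% and of 1034 to 6993 bp 23.1%, and the part of width in the other rates was not tested.

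In the mutant the 2 fates differed in other lists as well. IKDN H3K4me1 overlapped 84.3% of the sites that became primed gained regions and 30.6% of those with no IKDN H3K27ac (all primed sites 40.7%). TEAD1 overlapped 36.7% and 8.93% (all 13.5%), and MED1 23.0% and 1.99% (all 6.30%). IKDN H3K27me3 overlapped 1.85% and 7.42% (all 6.37%), whereas WT H3K27me3 overlapped 7.19% and 7.11% (all 7.12%).

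**Figure D4:**
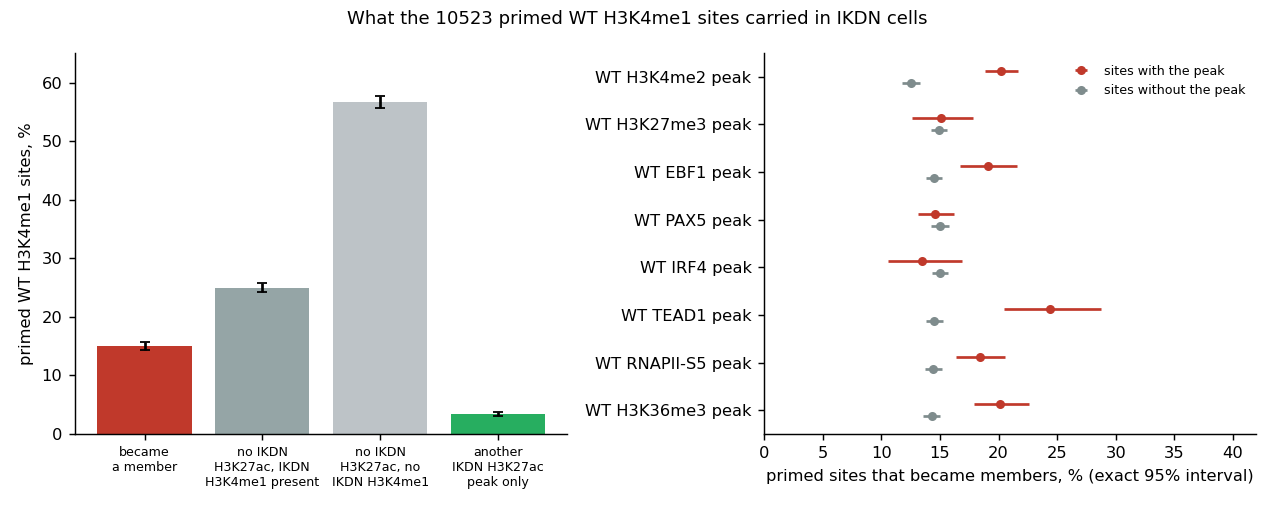
The left plot gives the percent of the 10523 primed WT H3K4me1 sites by their state in IKDN cells, and the right plot the percent that became members, that is, overlapped a primed gained region, with and without each WT peak, all with exact 95% intervals. In the right plot sites with WT TEAD1 have the largest rate, 24.4%.

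The WT H3K4me1 peak under a region was not always a stand-alone site. For 1555 regions (69.0%) it held neither WT H3K27ac nor Ikaros anywhere along its length. Those regions had a median H3K27ac score of 14.9, a median width of 927 bp and MED1 at 23.7%. For 514 (22.8%) the same WT H3K4me1 peak also held WT H3K27ac outside the region, and these had a median score of 8.21, a width of 501 bp and MED1 at 8.37%. For 185 (8.21%) it held Ikaros and no H3K27ac, with a median score of 7.82 and MED1 at 10.8%. The regions of these 2 smaller groups thus shared a WT H3K4me1 peak with WT H3K27ac or Ikaros, and their scores were lower. Whether they were flanks of the same elements was not tested.

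The regions lay closer to WT acetylation than the unprimed gained ones. The median gap to the nearest WT H3K27ac peak was 4543.5 bp, against 10842.5 bp for the gained regions without WT H3K4me1. The nearest WT Ikaros peak was at a median of 4996 bp, against 11867 bp. When the distal IKDN H3K27ac peaks were stitched across the gap length usual for super-enhancer calls, 980 of 14063 clusters ranked as super-enhancers, the clusters with the largest summed score. They held 493 primed gained regions (21.9%, 20.2 to 23.6), against 18.6% of the unprimed gained and 26.3% of the kept regions, and 22.1% of all distal peaks. A primed gained region lay in 333 super-enhancers, at most 5 lay in 1, and 0 super-enhancers were made of them alone. By position 1283 (56.9%) were intronic and 870 (38.6%) intergenic, close to the 56.5% and 38.3% of all distal peaks, against 67.4% and 26.0% of the unprimed gained regions, per the deposited annotation.

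Within 500 kb downstream of a region's start lay a median of 2 primed gained regions, itself included, and the fullest stretch held 12. That stretch, on chromosome 8 between 128038487 and 128489321, is annotated to the microRNA genes Mir21c and Mir1903 and to Nrp1, a co-receptor of semaphorins and VEGF, and ends short of the integrin beta 1 gene Itgb1. It held 6 unprimed gained and 2 kept regions beside the 12, with scores of the 12 between 7.04 and 214.7. TEAD1 and LHX2 peaks lay at 7 of the 12 each, LMO2 at 6 and MED1 at 4 in IKDN cells. Next came 3 stretches with 9 each. One lies around Ikzf1, which encodes Ikaros itself, with 14 unprimed gained and 19 kept regions, one on chromosome 15 between Prpf40b and Racgap1 with 6 and 6, and one on chromosome 2 between B4galt5 and A530013C23Rik with 14 and 16. These stretches were chosen after their values were seen.

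The strongest primed gained region lay in intron 1 of Trio, which encodes a guanine nucleotide exchange factor. It spanned chr15:27919398-27942478 (mm10), 23081 bp, with an H3K27ac score of 1094.9. WT H3K4me1 covered 651 bp of it and IKDN H3K4me1 22553 bp. MED1 covered 10724 bp in IKDN and 0 bp in WT cells, RNAPII 15535 and 0 bp, and H3K27me3 0 and 1289 bp. It held 4 LHX2, 4 LMO2 and 2 TEAD1 peaks in IKDN cells, and 2 TEAD1 peaks in WT cells. The next, in an intron of the non-coding gene Carmn on chromosome 18 with Mir143hg as nearest gene (score 967.8), had RNAPII in both genotypes, over 8312 bp in IKDN and all 8453 bp in WT cells.

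Next in score, a region at -25472 bp from the start of Ttf2, a transcription termination factor gene, spanned chr3:100989324-101000947 (score 802.0), with MED1 over 8528 bp in IKDN and 0 bp in WT cells. One in an intron of Supt3 at chr17:45114139-45121813 (score 587.3) had the most WT H3K4me1 cover of the 10 highest-scored regions. There H3K4me1 covered 7675 bp in IKDN and 3639 bp in WT cells, and H3K4me2 6979 and 3477 bp. One in an intron of Adcy10 with Mpzl1 as nearest gene scored 564.3, and one near Ccr1, a chemokine receptor gene, 533.0. The other 4 of the 10 highest were near Mrpl23 (423.5), A530050N04Rik (362.1), Actl6a, a subunit gene of BAF chromatin remodellers (360.9), and in Xylt1 (341.8), which starts the sugar chains of proteoglycans. WT H3K4me1 covered as little as 501 bp of 3 of the 10, those at Mir143hg (8453 bp wide), Mpzl1 (6661 bp) and Mrpl23 (4764 bp). WT MED1 covered 0 bp of all 10, and IKDN MED1 covered between 501 bp and 10724 bp. IKDN TEAD1 and LHX2 peaks lay in all 10, and LMO2 in all but the one near Actl6a.

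Without any of LHX2, LMO2 and TEAD1 the highest scores were far lower. They were 98.2 near Rab40c, 88.0 near Slc25a34 and 85.2 near Plcg2, a phospholipase C gene of B cell receptor signalling, at ranks 106, 121 and 130 of the 2254.

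**Figure D5:**
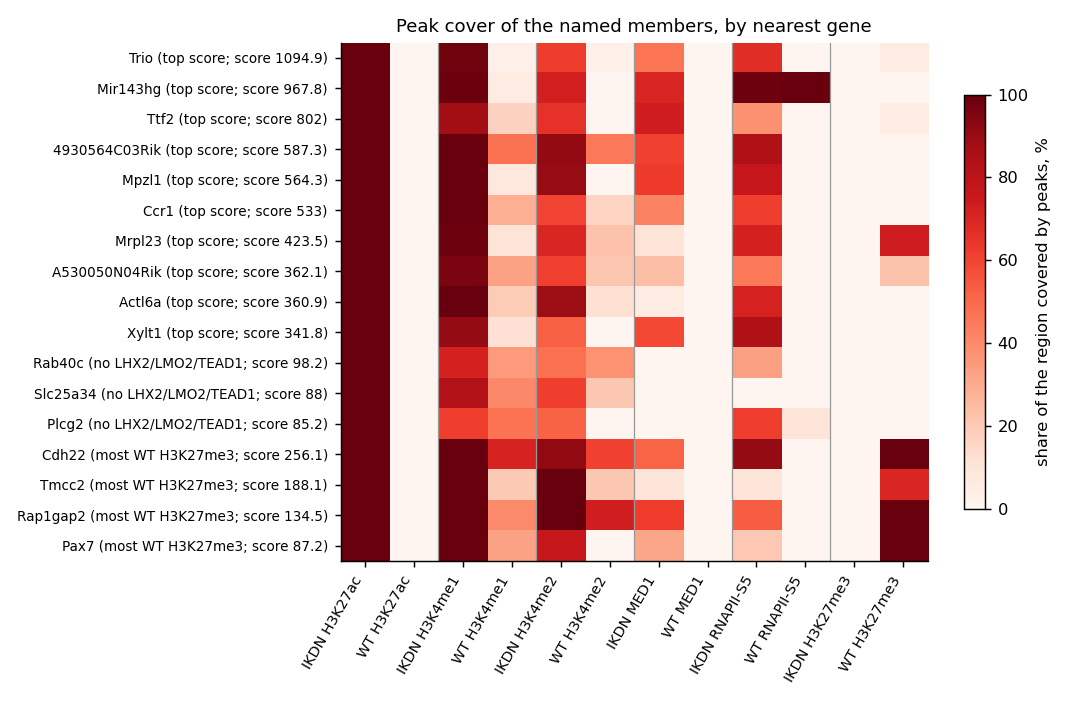
Each row is a named primed gained region (member) by its nearest gene and H3K27ac score, each column a list, IKDN left of WT, and the shade gives the percent of the region's width covered by peaks. IKDN H3K4me1 and H3K4me2 cover most of the 10 highest-scored regions, while WT MED1 covers 0 bp of them.

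The primed gained regions had 1725 nearest genes, 18.9% of the 9103 genes nearest to any distal IKDN H3K27ac peak. Of these 1349 had 1 region, 266 had 2, and 110 had 3 or more. A kept region was also nearest to 1151 of them (66.7%), and 574 had none. Mir1903 and Ext1 had the most, 6 each. Ext1 encodes an enzyme that extends heparan sulfate, and H3K27ac covered 52.2 kb of its gene body with 10 kb flanks in IKDN and 13.9 kb in WT cells. H3K36me3 there covered 80.9 kb in IKDN and 14.3 kb in WT cells, and RNAPII 49.1 and 6.05 kb.

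Other genes with many such regions did not all show the same pattern. Sipa1l2, a Rap GTPase-activating protein gene, had 5 regions, TEAD1 at all 5 and LHX2, LMO2 and MED1 at 4 each, with H3K36me3 over 76.9 kb in IKDN and 1.002 kb in WT cells. Prkca, which encodes protein kinase C alpha, also had 5, with H3K36me3 over 155.8 kb in IKDN and 82.5 kb in WT cells but RNAPII over 73.1 kb in IKDN and 115.5 kb in WT cells. Xylt1 had 4, MED1 at all of them, with H3K36me3 over 179.7 kb in IKDN and 16.8 kb in WT cells. Nucb2 had 4, and its own H3K36me3 covered 0.774 kb in IKDN and 7.78 kb in WT cells. Utrn, the utrophin gene, had 4, and RNAPII covered 8.42 kb in IKDN and 58.5 kb in WT cells. Sp3, a zinc finger factor gene, had 4, with nearly equal H3K36me3 of 42.7 kb in IKDN and 41.9 kb in WT cells.

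H3K36me3 was called higher in IKDN cells where the length under its peaks exceeded that of WT cells by 1000 bp or more and by a factor of 1.5 or more, a threshold and not a test. Of the 95 protein-coding genes nearest to 3 or more primed gained regions, it was higher at 42 (44.2%, 34.0 to 54.8) and lower at 2, where all protein-coding genes gave 14.9% higher and 2.42% lower. At a stricter threshold of 2000 bp and 2 times it was higher at 28.4% of the 95, where all protein-coding genes gave 8.42% and genes with 3 or more unprimed gained regions and no primed one 24.2%. With 1 or 2 such regions the share was 29.6% of 1404 genes, with 3 or more unprimed gained regions and no primed one 35.2% of 611, and with kept regions alone 16.1%. Gene length moves with these groups: its median was 104262 bp, 43261.5 bp, 58258 bp and 23172 bp in the same order, and 17329 bp over all protein-coding genes. Its part in the H3K36me3 shares was not tested.
RNAPII was higher at 31 and lower at 26 of the 95 genes (all 17.4% and 14.6%), so it did not lean to one side as H3K36me3 did. H3K27me3 was higher at 5 and lower at 33 (all 15.2% and 20.8%). In the 611 genes with 3 or more unprimed gained regions and no primed one, RNAPII was higher at 33.4% and lower at 23.7%. H3K27me3 was higher at 12.6% and lower at 29.1% of those 611, where the 95 genes gave 5.26% and 34.7%. The part of gene length in these shares was not tested.

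By function, 70 of 345 listed genes, counted with or without a distal peak, were the nearest gene of a primed gained region. Within each list only the genes with a distal peak are counted, and they are read against the 18.9% of all such genes. A gene with more distal peaks has more chances to count, so the primed gained share of a list's distal peaks is given too, read against 8.19% of all distal peaks. Of 21 growth factor, Wnt, Notch and TGF-beta genes with a distal peak, 12 (57.1%) had at least 1, with 19 of their 136 distal peaks (13.97%). Smad3, a transducer of TGF-beta, had 3, and the insulin receptor substrate genes Irs1 and Irs2 had 2 each. Of 25 stem and progenitor factor genes 12 (48.0%) had one, but with 18 of their 233 distal peaks (7.73%) these were no larger a share than over all distal peaks. They were led by the ETS family genes Etv6 with 4 and Fli1 with 3, and Myb had 2. Of 20 genes that act in pre-B differentiation or in pre-BCR signals 8 had one, with 17 of 170 distal peaks: Pik3ap1, an adaptor gene for PI3 kinase, had 4 and Ikzf1 and Irf4 had 3 each. None of the 3 regions at Ikzf1 had LHX2, LMO2, TEAD1 or MED1.

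Of 25 integrin and focal adhesion genes 8 (32.0%) had 14 regions, of 170 distal peaks (8.24%), near the share over all distal peaks. Itga1, the integrin alpha 1 chain, had 3, and H3K36me3 covered 48.1 kb of it in IKDN and 1.54 kb in WT cells. Itgb1 and Actn1, which encodes an actin cross-linker, had 2 each. Of 17 Hippo and YAP-TEAD genes 5 (29.4%) had 6, of 91 distal peaks (6.59%), with 2 at the receptor gene Axl. Ptpn14, a phosphatase gene of that pathway, shows the other kind of gain, with 1 primed and 19 unprimed gained regions. Of 16 cell junction and epithelial genes 1 had one, of 43 distal peaks (2.33%), the alpha-catenin gene Ctnna1.

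B lineage identity genes had 1 region each at 5 of 21 genes, of 126 distal peaks (3.97%), among them Bach2, Irf8 and Cd72. Cell cycle and survival genes had 8 regions at 4 of 18, of 81 distal peaks (9.88%), led by Bcl2 with 3 and by Cdk6 and Ccnd1 with 2 each. Of the lists for other cell types, 2 of 14 stromal fibroblast genes had one (Twist2 with 2 and Vim with 1, of 34 distal peaks, 8.82%). Of 11 T cell genes 4 (36.4%) had 5 regions, of 33 distal peaks (15.2%), with 2 at Zap70, and Cd28 and Cd27 among the others. Of 10 myeloid genes 1 had one (Csf1r, of 22 distal peaks, 4.55%), and of 4 erythroid and megakaryocyte genes 0. Housekeeping genes had 2 regions at 2 of 11, Rab7 and Actb, of 40 distal peaks (5%). These counts were not adjusted for gene length.

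The cells carried the chromatin of the labelled B lineage, beside signal at some stromal markers that was larger in WT cells. All 8 defining B lineage genes had H3K27ac within 10 kb in both genotypes, 202.4 kb in all in IKDN and 274.7 kb in WT cells, and 0 primed gained regions had one of them as nearest gene. Of 6 stromal markers 3 had H3K27ac in IKDN cells, 7.79 kb in all, and 5 in WT cells, 20.04 kb in all, with Col1a2 at 0 in both and Col3a1 and Mmp2 at 0 in IKDN. Of 3 T cell markers 1 had the mark in each genotype, with Cd3e and Cd8a at 0, and of 3 myeloid markers 2 in each, with Mpo at 0 and 5.47 kb in all in IKDN and 2.59 kb in WT cells. Of 3 erythroid and megakaryocyte markers 2 had it in IKDN and 1 in WT cells, with Gata1 at 0 in both, and 9.18 kb in IKDN and 6.11 kb in WT cells. H3K4me3 lay at all 8 B lineage genes in both genotypes, and at 1 of the 6 stromal markers in IKDN and 5 in WT cells. It lay at 1 of 3 T cell markers in each genotype and at 1 of 3 myeloid markers in WT cells alone. The part of other cell types in the primed gained regions was not tested.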

How the data were processed

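The deposited peak lists, made by the authors per target and genotype, were used as they stand. They hold, per the file headers, a position, a peak score and a distance to the nearest TSS in the columns that HOMER writes. Per the submitters' processing notes the tools were STAR, BWA, HOMER and bcl2fastq 1.8.3, with no roles given, and the builds mm9 and mm10. The scale of the score the authors deposited is not given in the sources used here, so it was compared within a list only. The positions match mm10: for 99.1% of matched genes, the start site that the distance column implies was at most 1000 bp from the GRCm38.p6 gene. No pooling is recorded. Depth per library is not given in the sources used here.

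Widths count both end bases. An overlap was at least 1 bp. Each list was used on the chromosomes that it covers completely, those on which its last peak lies within 10 Mb of the last peak of any list. Cover of a gene is the length under peaks over its body and 10 kb on each side. Super-enhancers were peaks stitched across a fixed gap, above the point where the scaled curve of summed scores has slope 1. Sequences are RefSeq promoter windows, chosen after the data were seen, since the planned ones at peak centres needed a genome of this build, not used here. The computations used Python 3.11.15, pandas 2.3.3 and scipy 1.17.1, and the overlap code was tested on simulated data. The primed gained regions, gene lists and comparisons were chosen with earlier results of these data known. Named regions and genes are the 10 highest-scored regions, the highest with and without LHX2, LMO2 and TEAD1, the 5 with most WT H3K27me3, those at the thresholds, and the genes with most regions in all and per list. Some named by that rule are counted and not described, and 1 gene list is not reported here.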

Additional observations from a re-analysis of the deposited data

How the results depend on the processing

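No paired analysis was possible because each genotype and target has 1 library. There were 9 alternatives and 9 shares of primed gained regions, which gave 82 values, 1 of them fixed by its rule (WT H3K4me2 where WT H3K4me2 is the priming mark). In the other 81 the share stayed above that of the gained regions without WT H3K4me1, but not always by more than counting error. For the highest-scored 50% of H3K27ac, LMO2 lay at 33.2% of primed and 30.3% of unprimed regions, and WT H3K27me3 at 11.2% and 10.2%. WT H3K27me3 lay at 5.56% and 5.28% for the highest-scored 50% of WT H3K4me1. It lay at 8.42% and 7.42% within 1000 bp, and at 5.62% and 4.91% in regions of a fixed 1000 bp. In these cases the unprimed share was inside the 95% interval of the primed share, and elsewhere below it. Of the 81, 43 moved by less than the interval and 38 by more. The causes were not tested, beyond what a setting does by construction.

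Using the highest-scored 50% of distal H3K27ac peaks left 883 regions, with IKDN H3K4me1 at 95.8%, WT H3K4me2 50.7%, IKDN H3K4me2 85.8%, WT H3K27me3 11.2%, MED1 36.7%, LHX2 46.0%, LMO2 33.2%, TEAD1 60.4% and any WT factor 43.8%. The highest-scored 50% of WT H3K4me1 left 1026, with IKDN H3K4me1 at 86.6%, WT H3K4me2 56.6%, WT H3K27me3 5.56%, MED1 17.3%, LHX2 21.4%, LMO2 14.5% and TEAD1 29.5%. With priming by WT H3K4me2 there were 1413, with WT H3K4me2 at 100% by construction, IKDN H3K4me2 83.5%, WT H3K27me3 13.0%, MED1 25.7%, LHX2 30.1%, LMO2 19.4%, TEAD1 41.0% and any WT factor 39.4%. An overlap of 50% gave IKDN H3K4me2 63.7%, TEAD1 32.4% and any WT factor 30.8%. Peaks within 1000 bp gave IKDN H3K4me2 63.9%, WT H3K27me3 8.42%, LHX2 29.1%, TEAD1 40.3% and any WT factor 44.3%. A distance of 10000 bp to a TSS gave WT H3K4me2 41.3%, LHX2 26.8%, LMO2 18.5% and TEAD1 37.9%. Regions of a fixed 1000 bp gave WT H3K27me3 5.62%, LMO2 14.8% and TEAD1 31.7%.

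The share of primed sites that became primed gained regions, 14.9%, was 12.3% with 50% overlap and 23.9% for the highest-scored 50% of WT H3K4me1. The share of genes with higher H3K36me3, 44.2%, was 28.4% at 2000 bp and 2 times. The 70 listed genes became 99 with a region within 50 kb (all RefSeq genes 12.0%). The WT factor share over EBF1, PAX5, IRF4 and TEAD1 alone, on all 20 chromosomes, was 32.3% and was added after seeing the data. Motif shares at region centres were not run. With 1 library per genotype, unknown depth and lists of unequal length, the absence of a peak is not the absence of a mark.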
